A study of Mus musculus with 24 samples.

Results

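The mitochondrial fatty acid oxidation genes Cpt1a, Cpt1b, Cpt2, Slc25a20, Acadm, Acadl, Acadvl, Hadha, Hadhb and Etfdh were followed through the differentiation of white and brown preadipocytes with and without epigallocatechin gallate (EGCG), the main catechin of green tea. These 10 were chosen by symbol, and all 10 were found among the 37310 genes of the deposited tables. The cells were stromal vascular cells, the mixture left once fat-laden adipocytes are removed from the tissue, which includes their precursors. They were taken from the inguinal white depot (WAT) and the interscapular brown depot (BAT) of C57BL/6 mice aged 6 weeks. Every group received the same adipogenic media, which held insulin, dexamethasone and 3-isobutyl-methylxanthine up to day 4 and insulin and T3 from day 4 to day 8, all in serum. The medium also held either EGCG, at a dose that the labels do not give, or DMSO, which is the control. With 2 depots, 2 days (day 4 and day 8) and 2 treatments there were 8 groups of 3 libraries, 24 libraries together. Whether the libraries of a group came from separate mice, pools or dishes is not stated in the labels, so the p-values below measure only the spread between these libraries, which may be technical.

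Fatty acids that enter a mitochondrion are first joined to carnitine by carnitine palmitoyltransferase 1 on the outer membrane, carried through the inner membrane by the carrier Slc25a20 and given back to coenzyme A by Cpt2. Acyl-CoA dehydrogenases of different chain-length preference (Acadvl for very long, Acadl for long, Acadm for medium chains) then start each round of beta-oxidation, the trifunctional protein of Hadha and Hadhb carries out the later steps on long chains, and Etfdh hands the electrons on to ubiquinone. Brown adipocytes burn fatty acids this way to make heat, whereas white adipocytes mainly store them as triglyceride. Cpt1a is the liver-type and Cpt1b the muscle-type gene of the first step, which malonyl-CoA inhibits.

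Hadha and Hadhb, whose products sit in the same protein complex, lie head to head on chromosome 5. The bases between their starts number 272 (Hadha at 30154980 on the minus strand, Hadhb at 30155253 on the plus strand; RefSeq, GRCm38.p6). The 250 bases before the Hadhb start, chr5:30155003-30155252 on the plus strand, lie between these 2 RefSeq starts. They are printed because the 2 RNAs, described further on, did not keep the same ratio. The gene models on NCBIM37, used further on for the genes, put the starts closer together, Hadha at 30481702 and Hadhb at 30481788. By those models not all of the 250 bases lie upstream of both genes. Capitals mark GGGCGG, a GC box:
Hadhb: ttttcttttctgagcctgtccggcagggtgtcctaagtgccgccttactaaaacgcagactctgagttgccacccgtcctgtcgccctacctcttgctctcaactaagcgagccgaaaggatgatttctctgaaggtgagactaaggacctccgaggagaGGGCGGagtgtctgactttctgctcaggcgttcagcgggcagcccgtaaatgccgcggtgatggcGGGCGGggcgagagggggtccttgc
RefSeq promoter windows, from 250 bases before to 50 bases after the start, were found for 9 of the 10 members, all but Cpt1b. GGGCGG stood on either strand in 7 of the 9 windows, against 35.7% of all 32851 windows. The windows of Hadha and Hadhb overlap, and the only box of Hadha, at -188, is the Hadhb box at -90. That box is thus counted for both genes. The hexamer that nuclear receptors such as PPAR and ERR bind, AGGTCA on either strand, stood in 3 of the 9 (Acadm, Acadvl and Cpt1a) against 16.3% of all windows, and the longer AAGGTCA, which contains it, in that of Acadm alone against 4.72%. The paired form AGGTCANAGGTCA stood in none of the 9 and in 0.0396% of all windows. The 3 hexamers are shown for the genes that hold them. Of these genes, Cpt1a mostly moved against the other members with EGCG, while Acadm and Acadvl fell with them. Any part of the hexamer in this was not tested. Capitals mark AGGTCA or its reverse complement TGACCT, and each line reads along the strand of the gene.
Acadm, chr3:153944870-153944893, minus strand: gTGACCTtcgggctccggtgacac
Acadvl, chr11:70015493-70015532, minus strand: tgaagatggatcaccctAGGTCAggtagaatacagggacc
Cpt1a, chr19:3323190-3323229, plus strand: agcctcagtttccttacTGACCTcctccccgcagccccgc
A match of letters is a description of the window and not a site of binding.

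RNA levels are given as FPKM, reads on a gene divided by its length and by the reads of the library. Replicates 1 and 2 of every group were in the first table, with 39452696 to 52893848 reads on genes per library, and replicate 3 in a second, with 16392420 to 41675643 reads. The main tests therefore used the 16 libraries of replicates 1 and 2 (limma on log2(FPKM + 1), a gene being called at an adjusted p under 0.05). The 8 libraries of replicate 3 are given beside them as values, and enter only the alternative fits of both tables. Testing covered the 14095 genes that reached 1 FPKM in 2 or more of the 16 libraries, and with them 9 of the 10 members. Cpt1b did not reach it. The replicate 3 library of WAT day 8 EGCG stood apart: 61.0% of its reads lay on 5 genes, against 3.64% to 10.5% elsewhere, and its median ratio to the typical library was 0.456. The members summed to 100.2 FPKM in it and 234 to 237 in replicates 1 and 2 of its group. Replicate 3 ran higher than replicates 1 and 2 for Acadvl (median ratio 1.56 over the other 7 groups) and Hadhb (1.32), and between 0.895 and 1.15 for the other 7 tested members. All members but Cpt1b rested on at least 569 reads in every library.

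The highest level of 8 of the 9 tested members was in BAT day 8 control, where their mean FPKM over replicates 1 and 2 ran from 42.9 for Slc25a20 to 228 for Acadm. Summed over the 10 members, FPKM was 969 to 979 in the 2 libraries of that group and 1016 in replicate 3. The next highest sum, BAT day 4 control, was 456 to 496, and the WAT controls were at 313 to 334 on day 4 and 340.2 to 384 on day 8. All 4 EGCG groups, of either depot and day, summed to between 219 and 245 FPKM in replicates 1 and 2. Cpt1a was the exception, with its highest levels in the 2 day 8 EGCG groups and its lowest in the 2 BAT control groups. In bulk RNA, fewer cells of a type and less RNA per cell cannot be told apart.

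**Figure D1:**
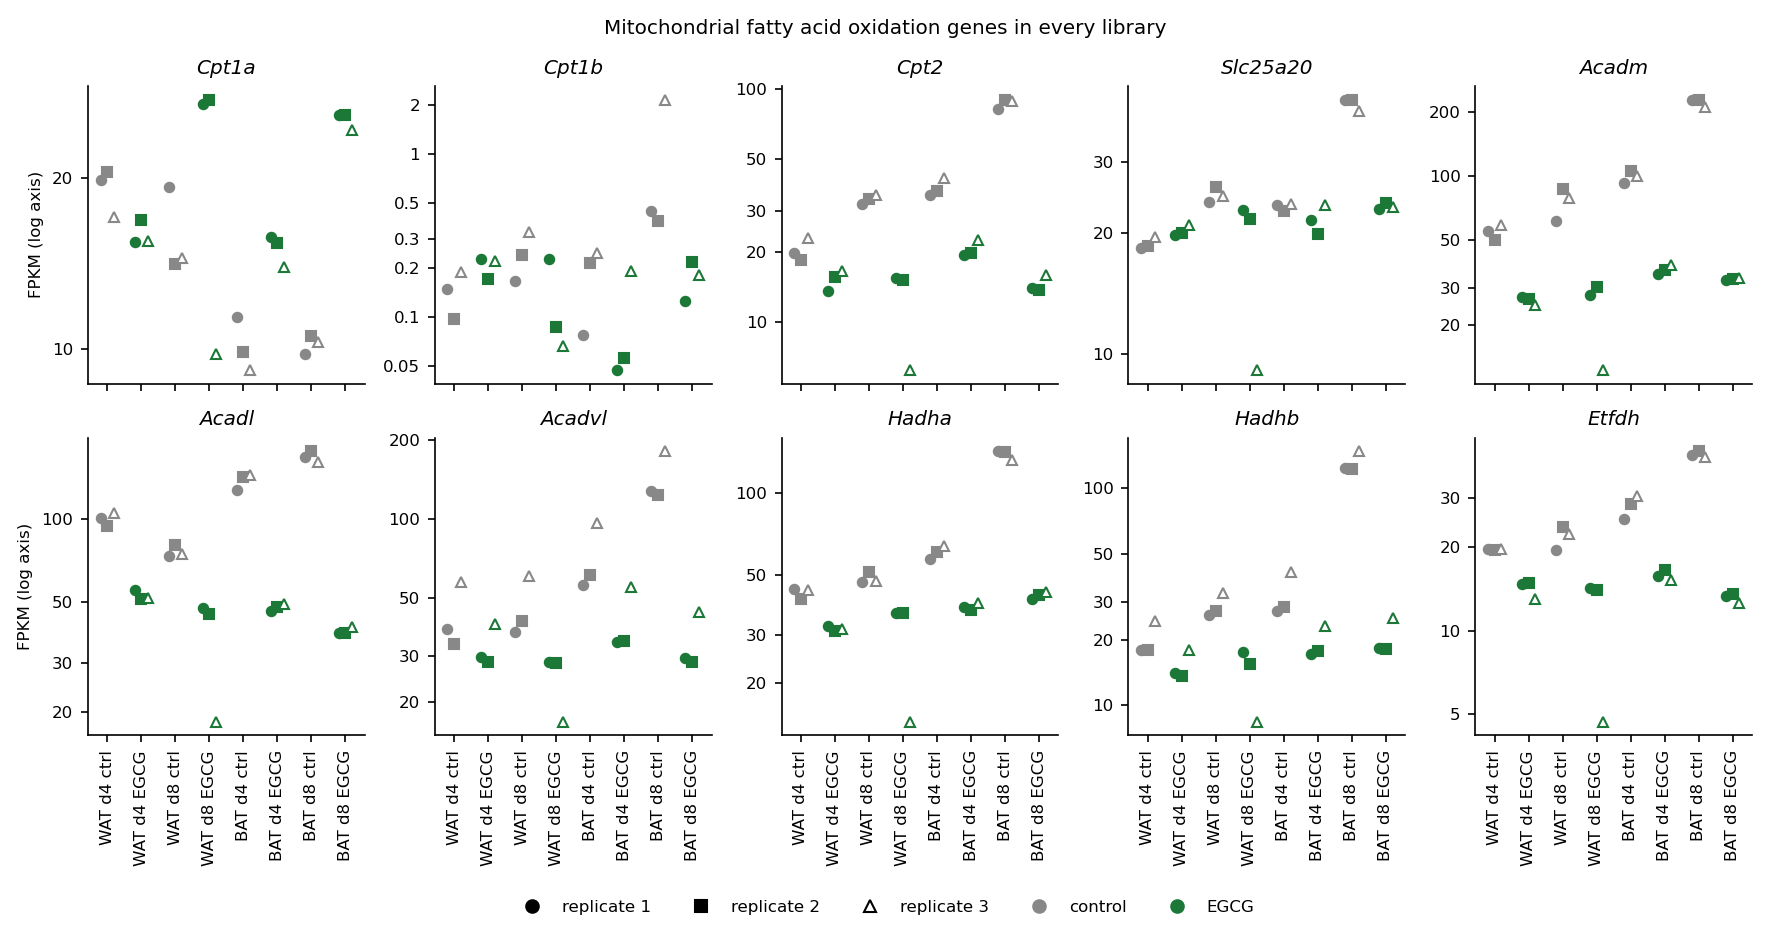
FPKM (log axis, own scale in each panel) of the 10 members in each of the 24 libraries, with controls in grey, EGCG in green, and replicate 3, from the second table, as open triangles. BAT day 8 control stands highest in every panel but that of Cpt1a, which is highest in the day 8 EGCG groups; the open triangle of WAT day 8 EGCG is low throughout.

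With EGCG, 7 members (Cpt2, Acadm, Acadl, Acadvl, Hadha, Hadhb and Etfdh) fell in all 4 comparisons with control, the most in BAT on day 8. Slc25a20 fell in 3 of them, and Cpt1a fell in WAT on day 4 and rose in the other 3. In WAT on day 4, 8 members were called lower and none higher, with log2 changes of -0.95 to -0.28; of all tested genes 19.3% were called lower and 34.4% higher. For WAT on day 8, 8 were lower (-1.30 to -0.16) and 1 higher, against 18.9% and 44.7% of all genes. For BAT on day 4, 8 were lower (-1.49 to -0.15) and 1 higher, against 20.6% and 27.9%. For BAT on day 8, 8 were lower (-2.76 to -0.85) and 1 higher, against 26.1% and 46.5%. The median log2 change of the 9 members was -0.36, -0.57, -0.71 and -2.08 in these 4 comparisons, and that of all tested genes 0.09, 0.17, 0.03 and 0.17. After each library was scaled by its median ratio, which moved the median of all genes to near 0, the shares of all genes called lower were 28.0%, 28.0%, 22.4% and 34.2% and those called higher 24.9%, 28.6%, 25.1% and 35.6%, and no member call in these comparisons changed. In replicate 3 every called member moved the same way, except Cpt1a in WAT on day 8, which rests on the library that stood apart. When all 24 libraries entered 1 fit with a term for the table, 2, 8, 7 and 9 members were called in the same order (2, 8, 7 and 8 of them lower), against 8.39%, 20.7%, 7.64% and 18.2% of all genes called lower and 13.5%, 5.91%, 11.3% and 29.5% higher. With median-ratio scaling and without the library that stood apart 8, 9, 9 and 9 were called (8 lower each time), against 31.6%, 29.5%, 27.2% and 35.3% lower and 28.2%, 29.2%, 27.6% and 37.3% higher.

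**Figure D2:**
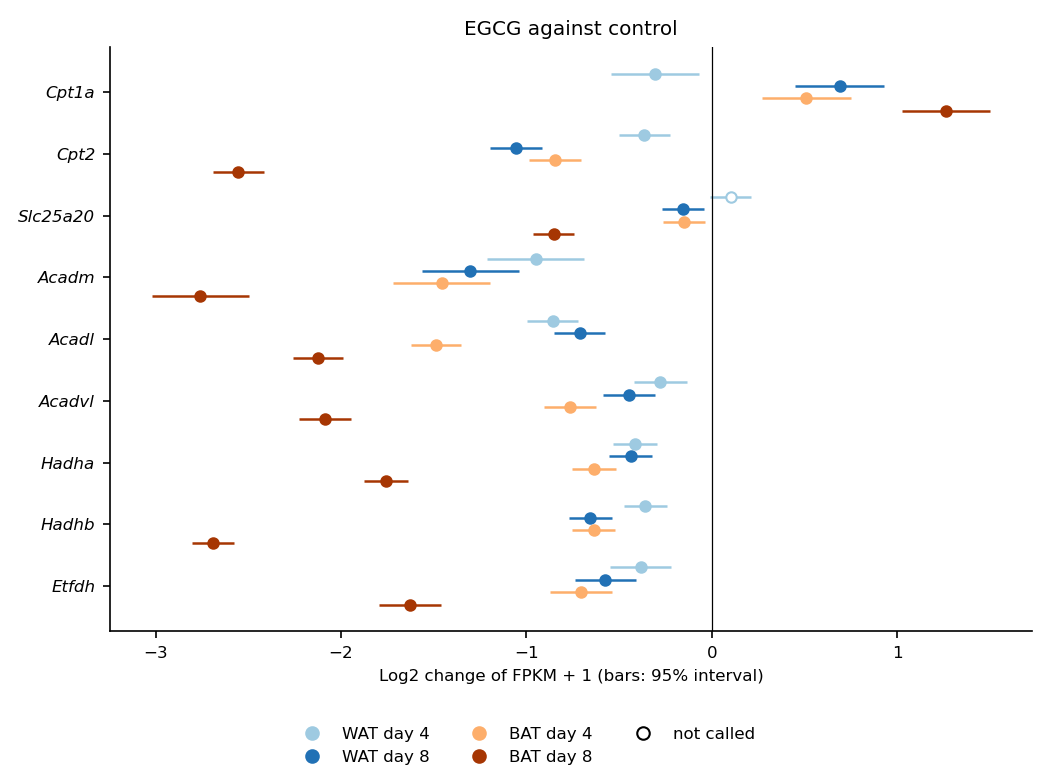
Log2 change of FPKM + 1 with EGCG against control for the 9 tested members (replicates 1 and 2, n = 2 per group; bars are 95% intervals from the limma fit, open circles were not called). BAT day 8 lies farthest from 0 for every member, to the left for 8 and to the right for Cpt1a.

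Cpt1a makes the liver-type enzyme that commits fatty acids to oxidation (chromosome 19, 3323301 to 3385732, plus strand; coordinates of genes are on NCBIM37, that is mm9). Its FPKM in replicates 1, 2 and 3 was 9.80, 10.6 and 10.3 in BAT day 8 control and 25.8, 25.8 and 24.3 in BAT day 8 EGCG. All 3 EGCG libraries lay above all 3 controls, by 2.54 times in the means of replicates 1 and 2 (log2 change 1.26 ± 0.11 (SE), limma adjusted p = 5.91e-07). In BAT on day 4 it was 11.4, 9.91 and 9.19 in control and 15.8, 15.3 and 13.9 with EGCG (log2 change 0.51 ± 0.11, adjusted p = 0.00216), again without overlap. On day 8 in WAT it was 19.3, 14.1 and 14.4 in control and 27.0, 27.5 and 9.79 with EGCG (log2 change 0.69 ± 0.11, adjusted p = 0.000157). Replicates 1 and 2 with EGCG lay above every control there, and the third lay below. Once replicate 3 was scaled by its median ratios, its log2 change was 0.55, against -0.52 as deposited. WAT on day 4 went the other way, from 19.9, 20.5 and 17.1 to 15.4, 16.9 and 15.5 (log2 change -0.31 ± 0.11, adjusted p = 0.0328). That call was lost when WAT day 4 control replicate 1 (adjusted p = 0.0816), control replicate 2 (0.120) or EGCG replicate 1 (0.170) was left out, and when genes of low FPKM were kept in the test (0.0746). In the fit of all 24 libraries Cpt1a was called in BAT on day 8 alone, with adjusted p-values of 0.475 and 0.361 in WAT on day 4 and day 8 and 0.0877 in BAT on day 4.

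Cpt1b, the muscle-type gene of the same step (chromosome 15, 89246836 to 89256294, minus strand), was close to the limit of counting. Its FPKM was 0.0516 to 0.415 in the group means of replicates 1 and 2, from 6 to 60 reads a library. BAT day 8 control was the highest group, with 0.446, 0.385 and 2.15 FPKM in replicates 1, 2 and 3 against 0.125, 0.216 and 0.180 with EGCG. The third control library, with 110 reads, stood far above the other two. Cpt1b made up 3.93 ± 0.589% of the summed FPKM of Cpt1a and Cpt1b in that group (SD, n = 2) and 17.3% in its replicate 3, and 0.331% to 1.40% in the means of the other 7 groups. When all genes were kept in the test, Cpt1b had an adjusted p of 0.01 for EGCG in BAT on day 8 and 0.00606 for day 8 against day 4 in BAT control. Only 628 of its 3372 exonic bases (18.6%) are free of Chkb, a choline kinase gene on the same strand that stood at 4.26 to 10.5 FPKM. How the counting treated reads on shared bases is not given in the sources used here, so the level and share of Cpt1b depend on a rule that is not known.

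The carrier Slc25a20 (chromosome 9, 108564429 to 108586972, plus strand) moved least of the members that fell. In BAT on day 8 it was 42.9, 42.9 and 40.1 FPKM in control and 22.96, 23.6 and 23.2 with EGCG, a fall by 1.84 times without overlap (log2 change -0.85 ± 0.05, adjusted p = 2.54e-08). On day 8 in WAT and day 4 in BAT the log2 changes were -0.16 and -0.15 (adjusted p = 0.0191 and 0.0303). The first was lost without WAT day 8 control replicate 2 (adjusted p = 0.157) or EGCG replicate 2 (0.134), and the second without BAT day 4 control replicate 1 (0.149), control replicate 2 (0.0533) or EGCG replicate 2 (0.235). In WAT on day 4 it was not called, at 18.3, 18.5 and 19.5 FPKM in control and 19.7, 19.9 and 21.0 with EGCG (log2 change 0.10 ± 0.05, 95% interval -0.01 to 0.21), and after median-ratio scaling its change was -0.01.

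Cpt2, the inner-membrane partner of Cpt1a (chromosome 4, 107576586 to 107596215, minus strand), went the opposite way to it in 3 of the 4 comparisons. Its FPKM in replicates 1, 2 and 3 was 82.3, 90.1 and 88.7 in BAT day 8 control and 14.0, 13.7 and 15.9 with EGCG. The groups stood far apart, and the mean fell by 6.23 times (log2 change -2.55 ± 0.06, adjusted p = 2.28e-11). It fell in WAT on day 8 from 32.1 and 33.6 to 15.5 and 15.1 in replicates 1 and 2 (log2 change -1.06 ± 0.06) and in BAT on day 4 from 35.2 and 36.6 to 19.3 and 19.7 (-0.85 ± 0.06). The change in WAT on day 4 was -0.36 ± 0.06. The FPKM of Cpt1a divided by that of Cpt2, a ratio within each library that its scaling does not touch, was 0.118 ± 0.00129 in BAT day 8 control and 1.87 ± 0.0330 with EGCG (SD, n = 2), and 0.116 and 1.52 in replicate 3. On day 8 in WAT it was 0.511 ± 0.128 in control and 1.78 ± 0.0576 with EGCG, and the library that stood apart gave 1.58, close to its group. The ratio is a description and was not tested.

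Acadm, the medium-chain dehydrogenase (chromosome 3, 153585321 to 153607596, minus strand), had the largest fall of the members in BAT on day 8. Its FPKM was 228, 227 and 211 in control and 32.7, 32.8 and 33.4 with EGCG, a fall by 6.95 times in the means of replicates 1 and 2 (log2 change -2.76 ± 0.12, adjusted p = 1.63e-09). Each EGCG library lay below every control by a wide margin. In WAT on day 4 it was 55.5, 50.3 and 58.9 in control and 27.2, 26.6 and 25.0 with EGCG, and in BAT on day 4 92.9, 106 and 99.7 and 34.7, 36.2 and 38.2. The control libraries of WAT on day 8 spread most, at 61.6, 86.5 and 78.6, and the EGCG libraries were at 27.9, 30.2 and 12.4. The log2 changes were -0.95 ± 0.12, -1.46 ± 0.12 and -1.30 ± 0.12.

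Acadl, the long-chain dehydrogenase (chromosome 1, 66877413 to 66909851, minus strand), was the most abundant member per length in both day 4 control groups. It fell from 168, 175 and 159.6 to 38.5, 38.5 and 40.5 FPKM in BAT on day 8 (log2 change -2.12 ± 0.06, adjusted p = 7.85e-11) and from 127, 141 and 144 to 46.5, 47.9 and 49.0 in BAT on day 4 (-1.49 ± 0.06, adjusted p = 1.09e-08). In WAT it fell by less, with log2 changes of -0.86 ± 0.06 on day 4 and -0.71 ± 0.06 on day 8. Acadvl, which takes very long chains and sits at the inner membrane (chromosome 11, 69823685 to 69828913, minus strand), fell from 128, 124 and 182 to 29.5, 28.5 and 44.1 in BAT on day 8 (log2 change -2.08 ± 0.06, adjusted p = 1.14e-10). Its log2 change was -0.28 in WAT on day 4, -0.45 in WAT on day 8 and -0.76 in BAT on day 4. Replicate 3 read higher than the others for this gene in both treatments, and 57.1% of its exonic bases are free of other genes, the rest lying over Dvl2 on the opposite strand. Whether counting used the strand is not given in the sources used here.

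Hadha (chromosome 5, 30444841 to 30481702, minus strand) and Hadhb (chromosome 5, 30481788 to 30511133, plus strand) make the alpha and beta subunits of the trifunctional protein. Hadhb was 124, 122 and 148 FPKM in BAT day 8 control and 18.4, 18.1 and 25.2 with EGCG, and Hadha 143, 142 and 132 and 40.9, 42.1 and 43.4. Both fell without overlap, Hadhb by 6.76 times (log2 change -2.69 ± 0.05, adjusted p = 5.07e-12) and Hadha by 3.44 times (-1.76 ± 0.05, adjusted p = 1.10e-10). In the other 3 comparisons the 2 genes changed by closer amounts, -0.36 and -0.41 in WAT on day 4, -0.65 and -0.44 in WAT on day 8, and -0.64 and -0.64 in BAT on day 4 (Hadhb first). The FPKM of Hadhb divided by that of Hadha was 0.424 to 0.540 in the means of 7 groups and 0.866 ± 0.00723 (SD, n = 2) in BAT day 8 control. Replicate 3, in which Hadhb read higher throughout, gave 0.554 to 0.693 in those 7 groups and 1.12 in BAT day 8 control. That group thus stood above the other 7 in each of its 3 libraries. This ratio, like the previous, is a description with no test.

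**Figure D3:**
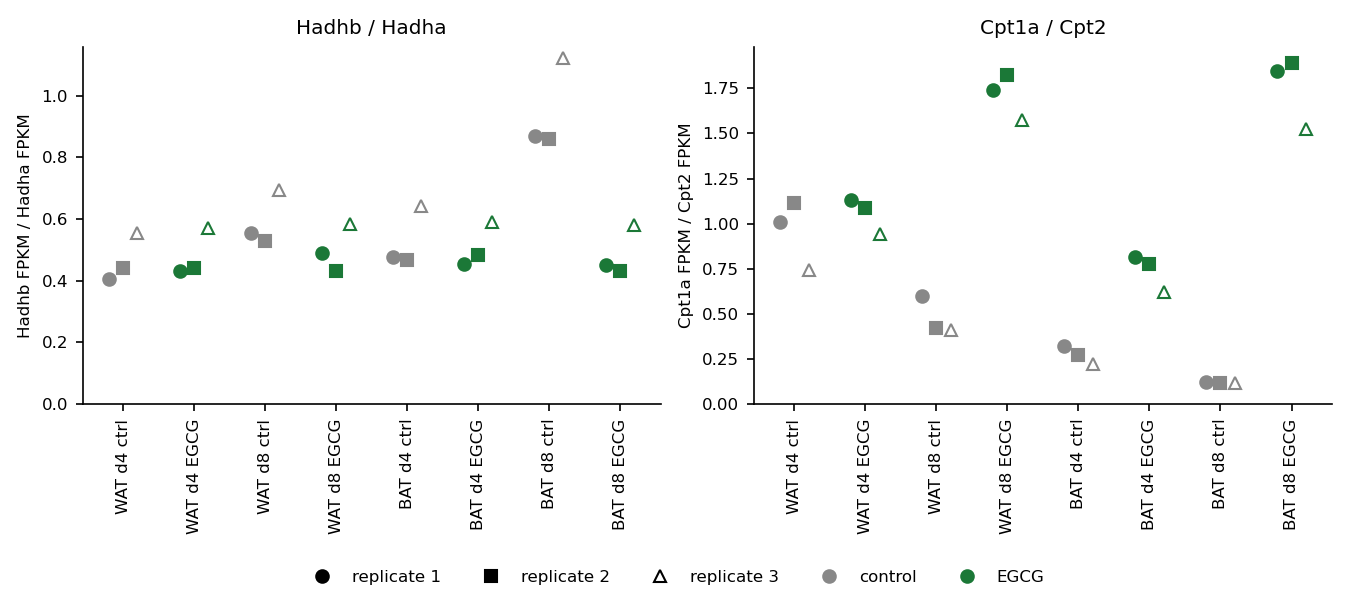
Ratio of FPKM within each library, Hadhb to Hadha (left) and Cpt1a to Cpt2 (right), with replicate 3 as open triangles, controls in grey and EGCG in green. The left ratio stands apart in BAT day 8 control (0.866 as the mean of replicates 1 and 2), and the right ratio is lowest there (0.118) and highest in the day 8 EGCG groups.

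Etfdh is the ubiquinone oxidoreductase at which the electrons of the acyl-CoA dehydrogenases meet (chromosome 3, 79407710 to 79432785, minus strand). It fell from 43.0, 44.3 and 42.2 to 13.4, 13.5 and 12.6 FPKM in BAT on day 8 (log2 change -1.63 ± 0.08, limma adjusted p = 3.02e-09). Its log2 changes elsewhere were -0.38 ± 0.08 in WAT on day 4, -0.57 ± 0.08 in WAT on day 8 and -0.71 ± 0.08 in BAT on day 4, and in none of the 4 comparisons did the EGCG and control libraries of replicates 1 and 2 overlap.

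From day 4 to day 8 without EGCG 8 of the 9 tested members rose in BAT, while in WAT 5 rose and 2 fell. In BAT control 8 of 9 were called higher, with log2 changes of 0.35 (Acadl) to 2.11 (Hadhb), and none lower, against 28.7% of all tested genes called higher and 40.4% lower (36.9% and 29.9% after median-ratio scaling). Hadhb went from 27.2, 28.5 and 41.1 FPKM on day 4 to 124, 122 and 148 on day 8. This rise of 4.42 times was the largest of the members, and Hadha (1.26), Cpt2 (1.24), Acadm (1.19) and Acadvl (1.09) followed on the log2 scale. Cpt1a was not called, at -0.06 ± 0.11 (95% interval -0.30 to 0.18), and its sign was the other way after median-ratio scaling (0.10). In WAT control 5 were called higher (Cpt2 0.76, Hadhb 0.54, Acadm 0.46, Slc25a20 0.41 and Hadha 0.21) and 2 lower (Acadl -0.34 and Cpt1a -0.27), against 27.7% and 33.2% of all genes. The Cpt1a call was lost in 13 of the 16 fits that left out 1 library, and without WAT day 8 control replicate 2 its log2 change was -0.06. The change of Acadm was 0.22 without the same library, where it was still called, and Hadha was not called without WAT day 4 control replicate 2 (adjusted p = 0.0642).

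From day 4 to day 8 with EGCG the members moved in both directions. In BAT 3 members were called higher (Cpt1a 0.70, Slc25a20 0.17 and Hadha 0.14) and 4 lower (Cpt2 -0.47, Acadl -0.29, Etfdh -0.24 and Acadvl -0.23), against 29.7% and 28.2% of all genes. Slc25a20 was not called with both tables in 1 fit (adjusted p by limma = 0.773 with 24 libraries and 0.0548 with 23 after median-ratio scaling), and in replicate 3 it went from 23.4 to 23.2 FPKM, the other way. In WAT 4 were called higher (Cpt1a 0.72, Hadhb 0.24, Hadha 0.18 and Slc25a20 0.15) and 1 lower (Acadl -0.19), against 31.8% and 27.7%. In replicate 3 as deposited, whose WAT day 8 EGCG library is the one that stood apart, 1 of these 5 moved as called, and after median-ratio scaling 5 did. Several calls rest on single libraries: the count fell to 3 in BAT without BAT day 8 EGCG replicate 2 and to 4 without BAT day 4 EGCG replicate 2, and to 3 in WAT without WAT day 4 EGCG replicate 1 or 2 or WAT day 8 EGCG replicate 2. The Cpt1a rise of 1.69 times in WAT and 1.66 times in BAT was seen in replicates 1 and 2 of both depots, and in replicate 3 of BAT, where it went from 13.9 to 24.3 FPKM.

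In the controls BAT held more RNA of the members than WAT, with Cpt1a again the other way. On day 4, 8 of 9 were called higher in BAT (0.31 to 0.89) and Cpt1a lower (-0.86 ± 0.11), against 41.4% and 14.4% of all genes (24.2% and 23.6% after median-ratio scaling). On day 8 the same counts held, and the differences of the 8 were larger, while that of Cpt1a was not. The 8 were higher by 0.76 (Slc25a20) to 2.17 (Hadhb) on the log2 scale and Cpt1a was lower, at -0.65 ± 0.11 (adjusted p = 0.000366), against 31.6% and 22.0% of all genes. Hadhb stood at 26.2, 27.1 and 32.9 FPKM in WAT and 124, 122 and 148 in BAT, 4.63 times higher, and Cpt1a at 19.3, 14.1 and 14.4 and 9.80, 10.6 and 10.3. Neither gene overlapped between the depots on day 8.

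Among EGCG-treated cells the depots lay close together. On day 4, 5 members were called higher in BAT (Cpt2 0.40, Acadm 0.39, Hadhb 0.32, Hadha 0.24 and Acadvl 0.22) and Acadl lower (-0.17), against 32.9% and 15.8% of all genes (25.0% and 20.7% after median-ratio scaling). The Acadm call was lost after median-ratio scaling (0.31, limma adjusted p = 0.0566) and with quantile normalization (0.30, 0.0523). Without BAT day 4 EGCG replicate 1 or 2 the count was 3, and in the limma fit of all 24 libraries it was 0 (1 at an unadjusted p under 0.05). On day 8 only Hadha was called higher (0.19) and only Acadl lower (-0.26), against 24.4% and 14.0% of all genes (19.0% and 16.6% after quantile normalization), and without WAT day 8 EGCG replicate 1, WAT day 8 EGCG replicate 2 or BAT day 8 EGCG replicate 2 only 1 call was left. In replicate 3 Acadl went the other way as deposited, and both went as called after median-ratio scaling. The 7 members not called differed by -0.13 to 0.17 on the log2 scale. The widest of their 95% intervals, that of Acadm, ran from -0.09 to 0.43, and that of Hadhb, which differed most in the controls, from 0.02 to 0.25. Among these 7, Cpt2 was called lower with quantile normalization (-0.18, limma adjusted p = 0.0489). It was also called lower with 23 libraries after median-ratio scaling (-0.18, 0.0200). Acadm was called higher with all 24 libraries (0.57, 0.0409), which include the library that stood apart. Cpt1a was at 27.0 and 27.5 FPKM in WAT and 25.8 and 25.8 in BAT in replicates 1 and 2, a log2 difference of -0.07 ± 0.11. The depot, day and EGCG comparisons reuse the same 16 libraries, so they are not separate pieces of evidence.

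**Figure D4:**
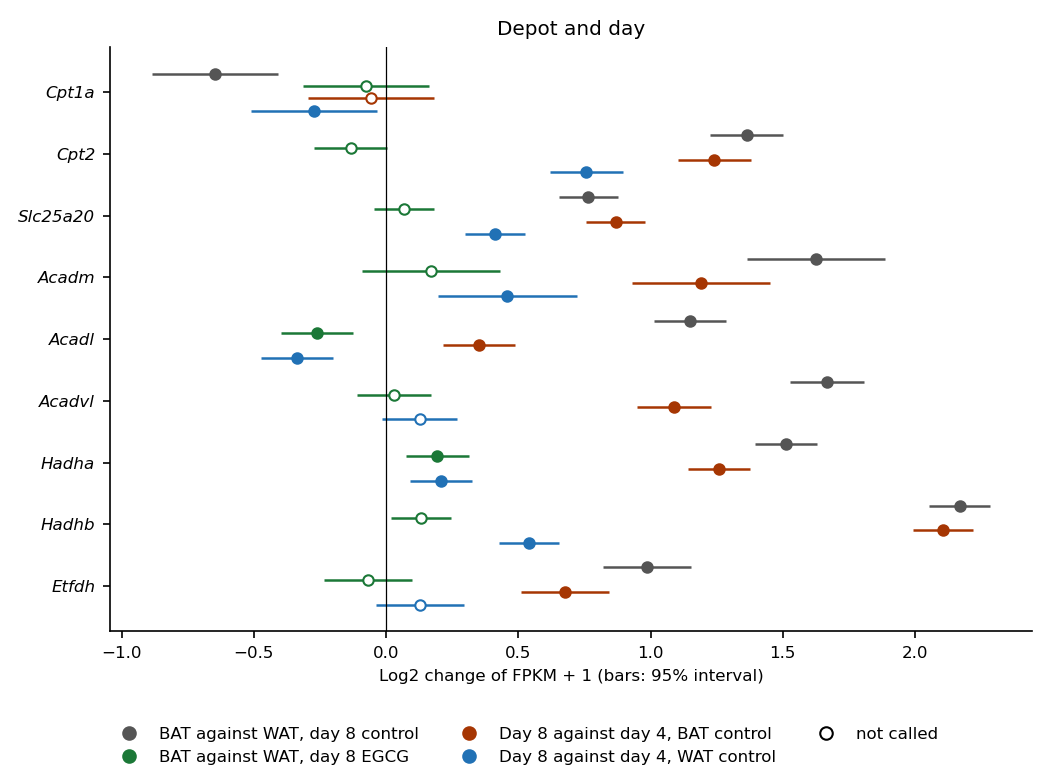
Log2 change of FPKM + 1 for the 9 tested members (replicates 1 and 2, n = 2 per group; bars are 95% intervals, open circles were not called) between depots on day 8 without and with EGCG, and between days in BAT and WAT controls. The differences between depots with EGCG (green) lie near 0, within -0.26 to 0.19, while those of the controls (grey) reach 2.17.

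Whether EGCG acted differently by depot or day was tested with the interaction terms of the same fit. On day 8 all 9 tested members differed between the depots, 8 with a larger fall in BAT (differences of log2 change from -2.04 for Hadhb to -0.70 for Slc25a20) and Cpt1a with a larger rise (0.57 ± 0.15), against 19.7% of all genes called lower and 19.4% higher. In the limma fit of all 24 libraries 6 of the 9 were called, and Slc25a20 (adjusted p = 0.522), Hadha (0.0590) and Etfdh (0.196) were not, while 9 were called with 23 libraries after median-ratio scaling. In replicate 3 as deposited, which includes the library that stood apart, 5 of the 9 differences had the called direction (the other 4 were Slc25a20, Acadl, Hadha and Etfdh), and after median-ratio scaling 9 had it. On day 4, 9 were called as well, 8 lower and Cpt1a higher, against 16.1% and 12.0% of all genes (10.5% and 16.05% after median-ratio scaling). The differences were smaller (-0.63 to -0.22 for the 8), and after median-ratio scaling 4 were called, 3 lower and Cpt1a higher. The same count was 4 without WAT day 4 EGCG replicate 1 and 5 without WAT day 4 control replicate 2, WAT day 4 EGCG replicate 2, BAT day 4 control replicate 2 or either BAT day 4 EGCG library. In BAT the effect of EGCG on day 8 differed from that on day 4 for all 9, 8 lower (the lowest -2.05 for Hadhb) and Cpt1a higher (0.75), against 20.6% and 34.7% of all genes (26.7% and 23.6% after median-ratio scaling). In WAT it differed for 4, Cpt2 (-0.69), Hadhb (-0.30) and Slc25a20 (-0.26) lower and Cpt1a higher (0.99), against 19.7% and 29.7%, and with quantile normalization 8 were called, 7 lower and 1 higher. The change from day 4 to day 8 in controls was larger in BAT than in WAT for 8 members, by 0.46 to 1.57 on the log2 scale, and Cpt1a was not called (0.22), against 14.8% of all genes called higher and 25.1% lower (21.4% and 17.4% after median-ratio scaling). With all 24 libraries 2 members were called for this term. Cpt1a was called higher with 23 libraries after median-ratio scaling (0.36, limma adjusted p = 0.0154).

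The rest of the mitochondrial pathway, a list of 14 further genes, was mostly lower with EGCG as well. With EGCG 10, 12, 12 and 13 of the 14 were called lower in WAT on day 4, WAT on day 8, BAT on day 4 and BAT on day 8, with medians of -0.48, -0.61, -0.70 and -1.73 on the log2 scale, and 1 was called higher each time. Those not called were Acad9 (-0.05), Eci2 (0.02) and Slc22a5 (-0.15) in WAT on day 4, Acad9 (-0.05) in WAT on day 8 and Slc22a5 (-0.06) in BAT on day 4. In BAT on day 8 the enoyl-CoA hydratase Echs1 went from 71.6 ± 0.277 to 10.7 ± 0.610 FPKM (SD, n = 2; log2 change -2.63), the hydroxyacyl-CoA dehydrogenase Hadh from 67.1 ± 0.966 to 12.8 ± 0.765 (-2.30), and Etfa, a subunit of the electron carrier that feeds Etfdh, from 234 ± 2.18 to 52.8 ± 1.74 (-2.13). The single gene called higher in all 4 was Cpt1c, the brain-type member of the Cpt1 family, whose product has little of the enzymatic activity of its relatives. It rose by 1.35 and 1.10 in WAT and 1.24 and 1.51 in BAT on the log2 scale, and stood at 13.4 ± 0.00336 FPKM in BAT day 8 control and 40.0 ± 1.05 with EGCG. From day 4 to day 8 in BAT control 12 of the 14 rose and 2 fell (median 0.84), and 13 were higher in BAT than in WAT control on day 8 (median 1.09).

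The genes that set malonyl-CoA, the inhibitor of Cpt1 enzymes, fell with EGCG in all 4 comparisons, 3 of 3 each time. Acacb, the acetyl-CoA carboxylase at the mitochondrial surface, was at 43.1 ± 4.41 FPKM in BAT day 8 control and 0.579 ± 0.0545 with EGCG (log2 change -4.80), Acaca at 104 ± 4.30 and 10.9 ± 0.283 (-3.14), and Mlycd, which breaks malonyl-CoA down, at 12.7 ± 0.220 and 4.74 ± 0.265 (-1.26). The list thus holds both the makers and the breaker of malonyl-CoA, and no metabolite was measured.

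Of the transcription factors and coactivators of the pathway 8 of 9 were tested, Esrrg being too low. In BAT on day 8 all 8 were called lower with EGCG, with a median of -1.14; in the other comparisons 6 were lower each time, with 2, 1 and 0 higher in WAT on day 4, WAT on day 8 and BAT on day 4. Pparg, the master factor of adipogenesis, went from 138 ± 1.71 to 11.2 ± 0.147 FPKM in BAT on day 8 (-3.51), Ppara, the main factor of fatty acid oxidation in liver, from 2.98 ± 0.430 to 0.398 ± 0.0406 (-1.50), the coactivator Ppargc1a from 3.61 ± 0.0109 to 0.354 ± 0.0661 (-1.77), and its relative Ppargc1b from 8.27 ± 0.768 to 0.658 ± 0.192 (-2.48). Ppard rose in WAT, by 0.85 on day 4 and 0.22 on day 8, was not called in BAT on day 4 (0.15) and fell in BAT on day 8 (-0.29). Of 5 other genes that PPARs or fasting are known to drive, 5 were lower in BAT on day 8 (median -2.46) and 5 in WAT on day 8 (-1.36). On day 4 there were 3 lower and 1 higher in WAT and 1 of each in BAT; Angptl4, an inhibitor of lipoprotein lipase, was the one that rose, by 0.38 in WAT and 0.30 in BAT. Peroxisomal oxidation, the other route for fatty acids, had 10 genes, of which 7, 4, 6 and 10 were called lower in WAT on day 4, WAT on day 8, BAT on day 4 and BAT on day 8 and 1 higher (Abcd3, WAT on day 8), with a median of -0.999 in BAT on day 8.

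Genes of the respiratory chain and the citric acid cycle, which carry the products of oxidation onward, fell with EGCG too. All 16 tested were called lower with EGCG in WAT on day 4 (median -0.59), BAT on day 4 (-0.75) and BAT on day 8 (-1.54), and 14 of 16 in WAT on day 8 (-0.46). From day 4 to day 8 in BAT control all 16 rose, with a median of 0.90 against 1.09 for the 9 members, and on day 8 all 16 were higher in BAT than in WAT control, with a median of 1.37 against 1.36. The citrate synthase Cs was at 295 ± 3.82 FPKM in BAT day 8 control and 80.5 ± 1.88 with EGCG.

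The markers of mature adipocytes were lower with EGCG, as most members were, and parted from the members from day 4 to day 8 under EGCG. All 10 were called lower with EGCG in each of the 4 comparisons, with medians of -3.06 and -4.93 in WAT on day 4 and day 8 and -2.20 and -4.63 in BAT. Their summed FPKM was 3821 to 4216 in WAT day 4 control and 1109.7 to 1159 with EGCG, 6345 to 7168 and 659 to 721 in WAT on day 8, 6562 to 7618 and 1604 to 1668 in BAT on day 4, and 11869 to 11951 and 492 to 502 in BAT on day 8, and no marker was at 0 in the mean of any group. The marker Fabp4, a fatty acid carrier, went from 7546 ± 80.0 to 224 ± 1.07 FPKM in BAT on day 8. In BAT control 8 of 10 rose from day 4 to day 8 (median 0.65), and 8 were higher in BAT than in WAT control on day 8 (0.95). From day 4 to day 8 under EGCG 9 of 10 fell in BAT and 9 in WAT. Their mean summed FPKM went from 1636 to 497 in BAT, where that of the members was 244 and 237, and from 1134 to 689.6 in WAT, where that of the members was 221 and 236. The part of the adipocyte content in the changes of the members was not tested.

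Brown fat markers also differed between the depots. On day 8 all 8 were higher in BAT than in WAT control, with a median of 1.74, and their summed FPKM was 245 to 249 in BAT and 39.3 to 41.0 in WAT. Cox7a1 alone made up the largest part of each sum, at 191 FPKM in BAT and 21.1 in WAT. Ebf2 (20.1 and 9.44) and Lhx8 (10.3 and 8.01) differed by less. The uncoupling protein Ucp1, the defining marker of brown adipocytes, was at 6.56 ± 0.579 FPKM in BAT day 8 control (SD, n = 2), 0.333 ± 0.127 in BAT day 4 control and at most 0.117 in the means of the other 6 groups. It was listed at 0 in every library of BAT day 8 EGCG and of WAT day 8 control, where 3 reads on a gene of 2 kb would be 0.0284 to 0.0905 FPKM. With EGCG in BAT on day 8, 6 of 8 brown markers were lower and 2 higher, Zic1 (0.89) and Lhx8 (0.22). The counts were 3 lower and 1 higher in BAT on day 4, and 2 lower with 3 and 1 higher in WAT on day 4 and day 8. Of all tested genes 26.1% were called lower and 46.5% higher in BAT on day 8, and 20.6% and 27.9% in BAT on day 4. In WAT the shares were 19.3% and 34.4% on day 4 and 18.9% and 44.7% on day 8. The brown marker counts of WAT on day 4 lie near them. The 4 inguinal white markers were all lower in BAT than WAT control on both days, with medians of -1.40 and -1.92. With EGCG 4 were called lower in WAT and, by limma, 0 in BAT on day 4 (1 at an unadjusted p under 0.05), and 4 were called higher in WAT and 3 in BAT on day 8.

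Some markers of other cells of the stromal fraction changed with EGCG. Of 5 macrophage markers 4 rose in WAT and 3 in BAT on day 4, and all 5 fell in both depots on day 8. Their mean summed FPKM was 67.8 in control and 178 with EGCG in WAT on day 4, and 101 and 54.9 in BAT on day 8. Most of each sum was Lyz2, at 55.4 and 162 in WAT on day 4 and 84.2 and 45.4 in BAT on day 8. Of 4 endothelial markers 3 rose in WAT on each day and 4 in BAT on each day, with summed FPKM of 14.1 to 14.6 in BAT day 8 control and 27.1 to 28.4 with EGCG. Progenitor and fibroblast markers gave 2 higher and 3 lower of 7 in WAT on day 4, 1 and 5 in WAT on day 8, 2 and 1 in BAT on day 4 and 1 and 4 in BAT on day 8. Of all tested genes 34.4% were higher and 19.3% lower in WAT on day 4, 44.7% and 18.9% in WAT on day 8, 27.9% and 20.6% in BAT on day 4 and 46.5% and 26.1% in BAT on day 8. The progenitor and fibroblast counts of BAT on day 4 lie near those shares. Skeletal muscle markers, of which 4 of 8 were tested, gave 3 higher in WAT on day 4, 1 higher and 1 lower in WAT on day 8, 0 by limma in BAT on day 4 (1 at an unadjusted p under 0.05) and 2 lower in BAT on day 8, and summed to 37.0 to 39.7 FPKM in BAT day 8 control. From day 4 to day 8 in BAT control all 4 rose, with a median of 1.27, beside the rise of the members there. Of 3 cardiac markers only Tnnt2 was tested, and it rose in WAT with EGCG on both days and in BAT control from day 4 to day 8. The part of these cells in the changes of the members was not tested.

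The members other than Cpt1a varied together. Over the 16 libraries the Pearson correlation of log2(FPKM + 1) between pairs of the other 8 tested members ran from 0.579 (Slc25a20 with Acadl) to 0.990 (Hadha with Hadhb), and Cpt1a correlated with each of them between -0.82 and -0.53. The libraries fall into 8 groups, so these values describe the differences between groups and are given without a test. Among the genes whose profile was most like the mean of the tested members were Itih4 (r = 0.996), Idh3g (0.995), 6430573F11Rik (0.995) and Uqcrc2 (0.994). Idh3g and Uqcrc2 belong to the citric acid cycle and the respiratory chain. The genes most like Cpt1a were Bcl10 (0.969), Ndel1 (0.962) and Arf4 (0.960).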

How the data were processed

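RNA was extracted as total RNA from cells of 24 libraries, and the deposited values were FPKM per gene, computed by the authors within each of 2 tables. Per the labels, reads were checked with FastQC 0.11.9, aligned with HISAT2 2.2.0 and counted with HTSeq 0.11 on mm9; the strand setting is not given in the sources used here. Every value was a whole number of reads (within 0.01 of a read) once multiplied by gene length and library total, which gave the depths; counting error is smallest for the abundant members, and 3 reads were taken as the floor. The 16 libraries of replicates 1 and 2 were fitted with limma 3.58.1 (R 4.3.3), with a trend and a mean for each of 8 groups, on log2(FPKM + 1), so changes of low genes are understated. Genes reached 1 FPKM in at least 2 libraries, and p-values were adjusted by Benjamini-Hochberg within each of 17 contrasts. Replicate 3, deposited in a table normalized separately, gave values and directions only beside this main fit. It was tested only in the alternatives that put both tables in 1 fit. The fit was run on simulated reads in which a small set of genes changed in a single group. In the data here large shares of all genes were called, so that run does not show how the fit fares on them. All members were named, along with genes of lists (117 of 118 symbols matched, Ndufb8 not), and the genes most correlated with the mean of the members and with Cpt1a; none was sought for Cpt1b, which was not tested. The values of 1 gene are not reported here. The members and lists were chosen with earlier results of these data known. Alternatives were another pseudocount, no filter, median-ratio and quantile scaling, the replicate number as a block, voom on the recovered reads, both tables in 1 fit, and each library left out.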

Additional observations from a re-analysis of the deposited data

Results flagged for a closer look

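The change with EGCG, or from day 4 to day 8 in controls, differed between depots or days for all 9 tested members, by the interaction terms of the limma fit (adjusted p under 0.05). Such terms were called for many genes. Of all tested genes, 16.1% were called lower and 12.0% higher for the depot difference on day 4, and 19.7% and 19.4% on day 8. For the day difference the shares were 20.6% and 34.7% in BAT and 19.7% and 29.7% in WAT. For the day effect in controls they were 25.1% and 14.8%. The share of all genes called in any of the 5 terms was not counted. The values are differences of log2 change. For Cpt1a the effect of EGCG was more positive in BAT than in WAT by 0.82 on day 4 and 0.57 on day 8, and more positive on day 8 than on day 4 by 0.99 in WAT and 0.75 in BAT. BAT minus WAT, the effect of EGCG on day 4 differed by -0.48 for Cpt2, -0.25 for Slc25a20, -0.28 for Hadhb, -0.51 for Acadm, -0.63 for Acadl, -0.49 for Acadvl, -0.22 for Hadha and -0.32 for Etfdh. On day 8 the same difference was -1.50 for Cpt2, -0.70 for Slc25a20, -2.04 for Hadhb, -1.46 for Acadm, -1.41 for Acadl, -1.64 for Acadvl, -1.32 for Hadha and -1.05 for Etfdh. Day 8 minus day 4, the effect of EGCG in BAT differed by -1.71 for Cpt2, -0.70 for Slc25a20, -2.05 for Hadhb, -1.30 for Acadm, -0.64 for Acadl, -1.32 for Acadvl, -1.12 for Hadha and -0.92 for Etfdh, and in WAT by -0.69 for Cpt2, -0.26 for Slc25a20 and -0.30 for Hadhb. In controls the change from day 4 to day 8 was larger in BAT than in WAT by 0.48 for Cpt2, 0.46 for Slc25a20, 1.57 for Hadhb, 0.73 for Acadm, 0.69 for Acadl, 0.96 for Acadvl, 1.05 for Hadha and 0.55 for Etfdh. The terms share libraries with one another. Of the 9 depot differences on day 4, 4 were still called after median-ratio scaling and, by limma, 0 with all 24 libraries (1 at an unadjusted p under 0.05), and of the 9 on day 8, 9 and 6. Single libraries were not tested as outlying, since each group held 3.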

How the results depend on the processing

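Of 153 changes (9 members in 17 contrasts, 127 called and 26 not), 153 kept their direction and their side of the threshold with a pseudocount of 0.1, 153 with voom on the recovered reads, 149 with the replicate block, 146 with no filter, 137 with quantile normalization, 138 with median-ratio scaling, 140 with 23 libraries of both tables scaled by median ratios, and 82 with all 24 libraries as deposited, where 65 of the 127 calls were kept. Of the 26 not called, 7 were called with quantile normalization, 2 with median-ratio scaling, 5 with 23 libraries and 2 with 24. With all 24 libraries 2 members were called for EGCG in WAT on day 4, 1 each for day 8 against day 4 in WAT control, WAT EGCG and BAT EGCG, 5 for the depots in day 4 control, 1 for the day difference of the EGCG effect in WAT and 5 in BAT, 6 for the depot difference of the EGCG effect on day 8, and 2 for the depot difference of the day effect in control. For the depots in day 4 EGCG and for the depot difference of the EGCG effect on day 4, limma then called 0, with 1 and 1 at an unadjusted p under 0.05. The depot difference of the EGCG effect on day 4 held 4 calls after median-ratio scaling, and the day difference of the EGCG effect in WAT held 8 after quantile normalization. The cause of these differences was not tested. With median-ratio scaling of replicate 3, 5 of 5 members moved in it as called for day 8 against day 4 in WAT EGCG (1 as deposited), 2 of 2 for the depots in day 8 EGCG (1 as deposited) and 9 of 9 for the depot difference of the EGCG effect on day 8 (5 as deposited).

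Directions turned for changes near 0 in the fit of 16 libraries and, with 24 libraries, also for 4 called ones (Slc25a20, Hadha, Hadhb and Acadl). For Cpt1a from day 4 to day 8 in BAT control the log2 change was 0.10 with median-ratio scaling, 0.038 with quantile normalization, 0.012 with 24 libraries, 0.15 with 23, and 0.035 without BAT day 4 control replicate 1, in a range of -0.15 to 0.035 over single libraries left out. For Slc25a20 with EGCG in WAT on day 4 it was -0.0146 with median-ratio scaling and -0.0151 with 23 libraries. With 24 libraries it was -0.27 for Slc25a20, -0.24 for Hadha, -0.18 for Hadhb, -0.38 for Cpt2 and -0.25 for Acadm from day 4 to day 8 in WAT EGCG, 0.19 for Acadl, 0.36 for Cpt1a, 0.32 for Cpt2 and 0.37 for Etfdh between depots in day 8 EGCG, and -0.22 for Acadl in the day difference of the EGCG effect in WAT. Between depots it was -0.021, -0.042 and -0.0058 for Slc25a20 in day 4 EGCG with median-ratio scaling, quantile normalization and 23 libraries, and -0.016 and -0.029 for Acadvl in day 8 EGCG with median-ratio scaling and 23 libraries. Without WAT day 8 control replicate 2 it was -0.0024 for Etfdh from day 4 to day 8 in WAT control, in a range up to 0.26. Single libraries left out also turned Cpt1a between depots in day 4 EGCG (-0.109 to 0.0109, turned without WAT day 4 EGCG replicate 2), Cpt2 from day 4 to day 8 in WAT EGCG (-0.0241 to 0.154, WAT day 4 EGCG replicate 1) and Hadha in the day difference of the EGCG effect in WAT (-0.0896 to 0.0374, WAT day 4 control replicate 2, WAT day 4 EGCG replicate 1 or WAT day 8 control replicate 2); none of these was called with all 16.

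Leaving out 1 library at a time, the count of members called ran from 7 to 8 and 8 to 9 with EGCG in WAT on day 4 and day 8, 8 to 9 and 9 to 9 in BAT, 5 to 9 and 8 to 8 for the days in WAT and BAT control, 3 to 5 and 3 to 7 for the days in WAT and BAT EGCG, 9 to 9 on both days for the depots in control, 3 to 6 and 1 to 2 for the depots in day 4 and day 8 EGCG, 4 to 9 and 9 to 9 for the depot difference of the EGCG effect on day 4 and day 8, 3 to 6 and 9 to 9 for its day difference in WAT and BAT, and 8 to 9 for the depot difference of the day effect in control. A group left with 1 library was assumed to vary like the other groups. Of 2448 single-member changes so computed, 2324 kept their direction and side.

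Replicate numbers did not pair the libraries: the deviations of libraries with the same number from their group means correlated between -0.0790 and 0.0810 over 28 pairs of groups. With the replicate block, 6 members were called for the days in WAT control, 6 in BAT EGCG, 5 for the depots in day 4 EGCG and 8 for the depot difference of the EGCG effect on day 4, with the other counts as before; the adjusted p of the 4 calls lost was 0.0515 to 0.0610.

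The share of Cpt1b in the summed FPKM of Cpt1a and Cpt1b became 0.408% in WAT day 4 control, 0.828% in WAT day 4 EGCG, 0.223% in BAT day 4 EGCG and 2.68% in BAT day 8 control when reads were not divided by length, and 0.670% and 8.38% in the last pair of groups with replicate 3 included. Depth limited Cpt1b alone, at 6 to 110 reads a library.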
